A study of Mus musculus with 12 samples.

Results

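*Neat1* and *Malat1*, the genes of a pair of nuclear long noncoding RNAs, were followed in ARG1+ and ARG1- microglia together with *Nono*, *Sfpq*, *Pspc1* and *Tardbp*, which encode RNA-binding proteins of the paraspeckle. These 6 genes were taken by symbol from the 55487 genes of the count table, and all 6 were among the 16908 genes that passed the filter on low counts. They were chosen from the ARG1 contrast of these same libraries, so their values in that contrast are given as a description with no test. In CPM (counts scaled to the TMM-adjusted library size), *Neat1* had a mean level of 42.1 ± 8.59 over the 6 ARG1+ libraries and of 7.01 ± 4.09 over the 6 ARG1- libraries (SD), and every ARG1+ library was above every ARG1- library. *Malat1* was higher on average in ARG1+ microglia with overlapping libraries, and for the 4 protein genes the ratio of the ARG1+ to the ARG1- mean lay between 0.855 and 1.11.

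Microglia were sorted from the basal forebrain and striatum of YARG mice, in which YFP is placed behind the stop codon of the endogenous *Arg1* gene and reports its activity. At postnatal day 13, ARG1+ cells (YFP-positive) and ARG1- cells (YFP-negative), both CX3CR1-positive and CD206-negative, were collected from females and from males, with 3 libraries in each of the 4 groups and tissue of several mice pooled per library. All groups carried the reporter, and none received a treatment. Libraries are named here by the replicate numbers in the sample labels, which are 1, 2 and 13 for ARG1- females, 5, 6 and 14 for ARG1- males, 7, 8 and 15 for ARG1+ females, and 11, 12 and 16 for ARG1+ males.

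Total counts ranged from 30954399 to 60625170 in ARG1- and from 28356659 to 46569667 in ARG1+ libraries, so that 3 counts, taken as the detection limit, equalled at most 0.102 CPM. Every member was above this limit in every library. Microglial markers summed to between 47657 and 63592 CPM in ARG1- and between 37542 and 48343 CPM in ARG1+ libraries, and 6 of the 8 were lower in the ARG1+ cells (edgeR, limit of 0.05 on the adjusted p). Of the markers of other cells, the 5 for border macrophages summed to 101 to 139 CPM in ARG1- and 106 to 234 CPM in ARG1+ libraries. Most of this sum was *Mrc1*. *Lyve1* and *Cd163* were at 0 in all ARG1- libraries and at most at 0.238 and 0.715 CPM in ARG1+ libraries. Astrocyte sums lay at 168 to 213 CPM in ARG1- and 127 to 148 CPM in ARG1+ libraries, mostly *Slc1a3*, and 1 of the 4 genes was called lower. Oligodendrocyte sums lay at 41.5 to 129 CPM (median 97.1) and 37.2 to 88.4 CPM (median 44.8), with 0 of 5 genes called. Endothelial sums lay at 27.98 to 56.1 and 38.7 to 83.2 CPM, nearly all of it *Pecam1*, while *Cldn5* was at 0 in all 12 libraries. Neuronal sums were at most 9.72 CPM, and erythrocyte sums lay at 2.93 to 16.3 CPM in ARG1- libraries and at most at 2.14 CPM in ARG1+ libraries, with 1 of 3 genes called lower. The part of these cells in the results was not tested. In bulk samples, fewer expressing cells and less RNA per cell cannot be told apart.

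Paraspeckles are nuclear bodies built on the *Neat1* transcript. NONO, SFPQ and PSPC1 belong to one family of RNA- and DNA-binding proteins that form dimers with each other, coat the nascent RNA and stabilize it. *Neat1* is made as a short isoform with a poly(A) tail and a long isoform that scaffolds the body, and TDP-43, the product of *Tardbp*, is known to affect the choice between them through its binding to UG repeats. MALAT1 is retained in nuclear speckles, the neighbouring bodies that hold splicing factors. The 3' ends of long *Neat1* and of *Malat1* are cut by RNase P and are protected by a triple helix in place of a poly(A) tail.

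The *Neat1* and *Malat1* genes lie next to each other on mouse chromosome 19, both on the minus strand. *Neat1* (ENSMUSG00000092274, a lincRNA in GENCODE M21) spans chr19:5824708-5845478 of GRCm38, with 20771 exonic bases. *Malat1* (ENSMUSG00000092341, also a lincRNA) spans chr19:5795690-5802672, with 6983 exonic bases, and starts 22.035 kb beyond the end of *Neat1*. The 3' ends decide how each transcript can be copied by a method that starts at runs of A, as the SMART-Seq kit used here does, and are shown from the GENCODE M21 transcripts. In the sequences of the long *Neat1* end and the *Malat1* A-rich tract, capitals mark the U-rich motifs (written with T) and the A-rich tract of the triple helix. In the other two, capitals mark the polyadenylation signal.
Long Neat1 end, chr19:5824708-5824807: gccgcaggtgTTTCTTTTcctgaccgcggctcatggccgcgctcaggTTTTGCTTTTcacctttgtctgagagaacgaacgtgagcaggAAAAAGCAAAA
Malat1 A-rich tract, chr19:5795982-5796081: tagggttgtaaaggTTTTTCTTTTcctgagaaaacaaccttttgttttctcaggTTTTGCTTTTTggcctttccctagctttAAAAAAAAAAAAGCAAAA
Short Neat1 end, chr19:5842307-5842366: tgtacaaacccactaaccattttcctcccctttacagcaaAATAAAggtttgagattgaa
Malat1 annotated end, chr19:5795690-5795749: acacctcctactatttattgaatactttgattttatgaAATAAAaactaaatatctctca
The annotated long *Neat1* transcript stops at its A-rich tract, whereas the annotated *Malat1* transcript runs 292 bases past its own and carries a polyadenylation signal near its end. Both genes therefore hold a stretch of A within or at the end of the transcript, and the counts, which are sums over each gene, do not say which isoform or end was read.

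*Neat1* was low in every ARG1- library and higher in every ARG1+ library. Its level in ARG1- females was 1.89, 12.6 and 7.53 CPM in replicates 1, 2 and 13, and in ARG1- males it was 10.05, 2.94 and 7.08 CPM in replicates 5, 6 and 14. In ARG1+ females it was 35.8, 39.3 and 56.6 CPM in replicates 7, 8 and 15, and in ARG1+ males it was 34.9, 48.3 and 37.7 CPM in replicates 11, 12 and 16. The highest ARG1- library (12.6 CPM) thus stood below the lowest ARG1+ library (34.9 CPM). Of all genes tested, 10% had populations that did not overlap in this way. The fitted difference was 5.99-fold, a log2 fold change of 2.58 (SE 0.40), higher than that of 95.6% of the genes tested.

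The depth behind these *Neat1* levels differed between populations. Raw counts lay between 63 and 505 in ARG1- libraries and between 1129 and 2298 in ARG1+ libraries. Among ARG1- libraries the highest level was 6.67 times the lowest, against 1.62 times among ARG1+ libraries. The coefficient of variation was 58.3% in ARG1- and 20.4% in ARG1+ microglia. Of the 2043 genes with a similar mean level over all 12 libraries (within 0.5 on the log2 scale), 90.9% varied less than *Neat1* in ARG1- microglia. In ARG1+ microglia 36.4% did. That mean level lay between the *Neat1* levels of the 2 populations. The percentages therefore do not compare *Neat1* with genes of its own level in either population.

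*Malat1* was among the most abundant RNAs of both populations, ranking 101 of the genes tested in ARG1- and 46 in ARG1+ microglia by CPM. It lay at 468, 722 and 1006 CPM in ARG1- females (replicates 1, 2 and 13) and at 1029, 1183 and 1345 CPM in ARG1- males (replicates 5, 6 and 14). In ARG1+ females it was at 1914, 2523 and 2129 CPM (replicates 7, 8 and 15). In ARG1+ males it was at 2196, 1313 and 733 CPM (replicates 11, 12 and 16). The females of the 2 populations stood far apart, whereas ARG1+ males spread from below the lowest ARG1- male to above the highest. In all, 4 of the 6 ARG1+ libraries were above every ARG1- library.

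Over both sexes the mean *Malat1* level was 959 ± 317 CPM in the ARG1- libraries and 1801 ± 659 CPM in the ARG1+ libraries (SD, n = 6 each), a fitted log2 fold change of 0.92 (SE 0.31). The coefficient of variation was 33.1% and 36.6%. In each population it was the highest among the 58 genes, *Malat1* included, of similar mean level over all 12 libraries. The number of *Malat1* counts per *Neat1* count lay between 57.3 and 402 in ARG1- libraries and between 19.5 and 64.1 in ARG1+ libraries. These ranges overlapped through ARG1- female replicate 2, the library with the highest *Neat1* level of its population.

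*Nono* (ENSMUSG00000031311), at chrX:101429318-101448591, encodes the dimer partner that SFPQ and PSPC1 have in common. Its level in ARG1- microglia had a lowest value of 149, a median of 158 and a highest value of 163 CPM, and in ARG1+ microglia these were 127, 142 and 154 CPM. The libraries were tightly grouped, and 5 of the 6 ARG1+ libraries lay below every ARG1- library, the exception being male replicate 12. Means were 157 ± 5.13 and 139 ± 10.4 CPM, and the fitted log2 fold change was -0.17 (SE 0.08). Among the 1061 genes of similar mean level over all 12 libraries, 0.189% varied less than *Nono* in ARG1- microglia.

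*Sfpq* (ENSMUSG00000028820), at chr4:127021324-127037013, encodes a protein that pairs with NONO and is required for paraspeckles to form. It ranged from 39.4 to 80.6 CPM in ARG1- microglia, with a median of 56.4, and from 35.9 to 63.8 CPM in ARG1+ microglia, with a median of 46.0. Only ARG1+ female replicate 7 lay outside the range of ARG1- libraries. The fitted log2 fold change was -0.20 (SE 0.17). The gene shares 3283 bases with *Gm12940* on the same strand, so part of its count could belong to that transcript.

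*Pspc1* (ENSMUSG00000021938), at chr14:56720710-56778316, encodes paraspeckle component 1, and was the least abundant of the protein genes. Its level had a lowest value of 14.3, a median of 20.6 and a highest value of 21.2 CPM in ARG1- microglia, and 14.9, 17.2 and 24.3 CPM in ARG1+ microglia. The ranges overlapped through ARG1- male replicate 14 at 14.3 CPM and ARG1+ male replicate 11 at 24.3 CPM. The other ARG1- libraries lay at 19.8 to 21.2 CPM and the other ARG1+ libraries at 14.9 to 19.1 CPM. The fitted log2 fold change was -0.13 (SE 0.17).

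*Tardbp* (ENSMUSG00000041459), at chr4:148612382-148627019, encodes TDP-43. It ranged from 43.3 to 92.9 CPM in ARG1- microglia, with a median of 72.0, and from 59.8 to 99.4 CPM in ARG1+ microglia, with a median of 73.3. The lowest ARG1- values were those of female replicates 1 and 2, at 43.3 and 47.3 CPM, and the third female library was the highest of the population. The fitted log2 fold change was 0.16 (SE 0.20). *Masp2*, on the opposite strand, shares 3118 bases with *Tardbp*, and the library kit does not keep strand.

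**Figure D1:**
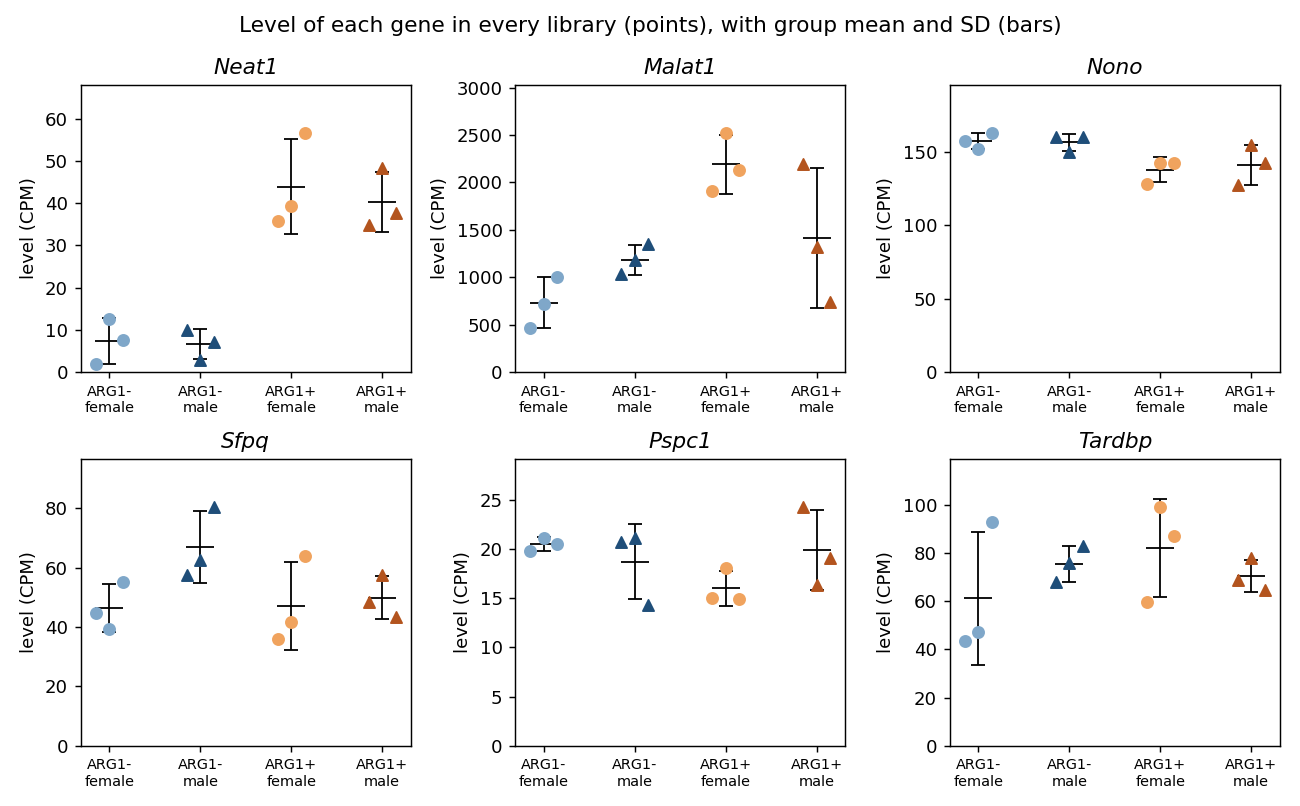
The level of the 6 genes in CPM (vertical axes, linear from 0) is plotted for each library, with circles for females and triangles for males in ARG1- (blue) and ARG1+ (orange) microglia, and with the mean and SD of each group of 3. *Neat1* lay between 1.89 and 12.6 CPM in ARG1- and between 34.9 and 56.6 CPM in ARG1+ libraries, whereas the libraries of the 2 populations overlapped for the other 5 genes.

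*Neat1* was the only member past an adjusted p of 0.05 in this contrast, as were 15.9% of all genes tested, and nothing is read from that count since the contrast chose the members. Per kilobase of exon, the order of the mean levels was the same in both populations. In ARG1+ microglia *Malat1* stood at 258 ± 94.4 CPM per kb, *Nono* at 31.9 ± 2.37, *Sfpq* at 10.2 ± 2.21, *Tardbp* at 9.78 ± 1.92, *Pspc1* at 3.13 ± 0.61 and *Neat1* at 2.03 ± 0.41 (SD, n = 6). The means of the neighbours *Sfpq* and *Tardbp* lay closer together than their SDs in ARG1+ microglia. In ARG1- microglia they stood at 11.96 ± 3.05 and 8.78 ± 2.53 CPM per kb. Within ARG1- libraries *Sfpq* was the higher of the pair except in female replicate 13 (11.7 against 11.9 CPM per kb). The difference between these genes was not tested. *Pspc1* was at 3.42 ± 0.46 CPM per kb in ARG1- microglia and *Neat1* at 0.338 ± 0.20, so the distance between the least abundant protein gene and the scaffold RNA was smaller in ARG1+ microglia. For *Neat1* this scale spreads the count over all 20771 bases of the long isoform.

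Counts at the *Neat1* locus differed in density between stretches of the gene. The small annotated RNAs *Gm28006*, *Gm27505* and *Gm27533* lie inside it on the same strand, between bases 442 and 1193 of the transcript, in the part that the short and the long isoform share. They held 2.74, 2.58 and 2.73 counts per base over all libraries, against 0.532 for *Neat1* as a whole, which is 4.85 to 5.15 times more. Their summed count equalled between 13.5% and 16.6% of the *Neat1* count in ARG1+ libraries and between 1.14% and 30.2% in ARG1- libraries, where the largest ratio came from the library with 63 *Neat1* counts. Such nested genes kept their reads in this table, since 219 of 220 genes lying on the same strand within an exon of a well-counted gene had counts. Whether a read was then counted for both genes is not given in the sources used here, so these are ratios of separate counts and not shares of the *Neat1* count.

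A gene near the 5' end of *Malat1* had a count of the same order as *Malat1* itself. *Gm37376*, annotated on the opposite strand over bases 280 to 732, held 387887 counts, beside 616551 for *Malat1*, a ratio of 62.9%, and covers 6.49% of its bases. The ratio of these counts was between 59.5% and 67.8% in ARG1- and between 60.3% and 66.5% in ARG1+ libraries. Without strand, reads of *Malat1* and *Gm37376* cannot be told apart. *Gm27694*, over bases 3588 to 3673 on the same strand, held 344 counts.

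TGTGTG, the DNA letters of a UG repeat, was searched in the transcripts on their own strand, with overlapping matches counted. The long *Neat1* transcript held 48 matches, or 2.31 per kb, more per kb than 91.6% of the 24356 annotated transcripts of at least 3000 bases. Of these matches, 45 lay past the first 3172 bases, in the part that only the long isoform has. The short *Neat1* transcript held 3, or 0.999 per kb, more per kb than 73.7% of the annotated transcripts searched. *Malat1* held 3, or 0.43 per kb, more per kb than 39.0%. Among the transcripts searched 86.4% held at least 1 match, with a median of 0.578 per kb. A match in these letters is not a binding site.

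The *Neat1* difference was of like size in females and males. The log2 fold change of ARG1+ against ARG1- microglia was 2.58 (SE 0.60) in females and 2.59 (SE 0.60) in males, and the difference between them was -0.01 (SE 0.79; edgeR adjusted p = 1). This standard error leaves room for differences of either sign. For *Malat1* the log2 fold change was 1.58 (SE 0.36) in females and 0.25 (SE 0.35) in males. The difference between these, 1.33 (SE 0.49), had an unadjusted p of 0.0207 and an adjusted p of 0.491 in edgeR's test over all genes, so it did not pass the limit.

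Neither sex contrast called a member. In ARG1- microglia *Malat1* was 732 ± 269 CPM in females and 1186 ± 158 in males (SD, n = 3), a log2 fold change of -0.70 (SE 0.35) for females against males. edgeR gave this difference an adjusted p of 0.541. In ARG1+ microglia the order was turned, with 2188 ± 309 CPM in females and 1414 ± 737 in males, which is 0.63 (SE 0.35) on the log2 scale. edgeR gave this an adjusted p of 1. *Sfpq* was 46.5 ± 8.07 CPM in ARG1- females and 66.9 ± 12.2 in ARG1- males. Its log2 fold change of -0.52 (SE 0.24) had an adjusted p of 0.499. For the 6 members the adjusted p (edgeR) was at least 0.499 in ARG1- and was 1 in ARG1+ microglia. Over all genes, 16 (0.0946%) were called between the sexes in ARG1- and 6 (0.0355%) in ARG1+ microglia, with 1692 and 528 genes at an unadjusted p under 0.05. The difference between the ARG1 effects of the sexes was called for 0 genes (0%) by edgeR, with 1576 at an unadjusted p under 0.05 and 214 called by DESeq2.

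**Figure D2:**
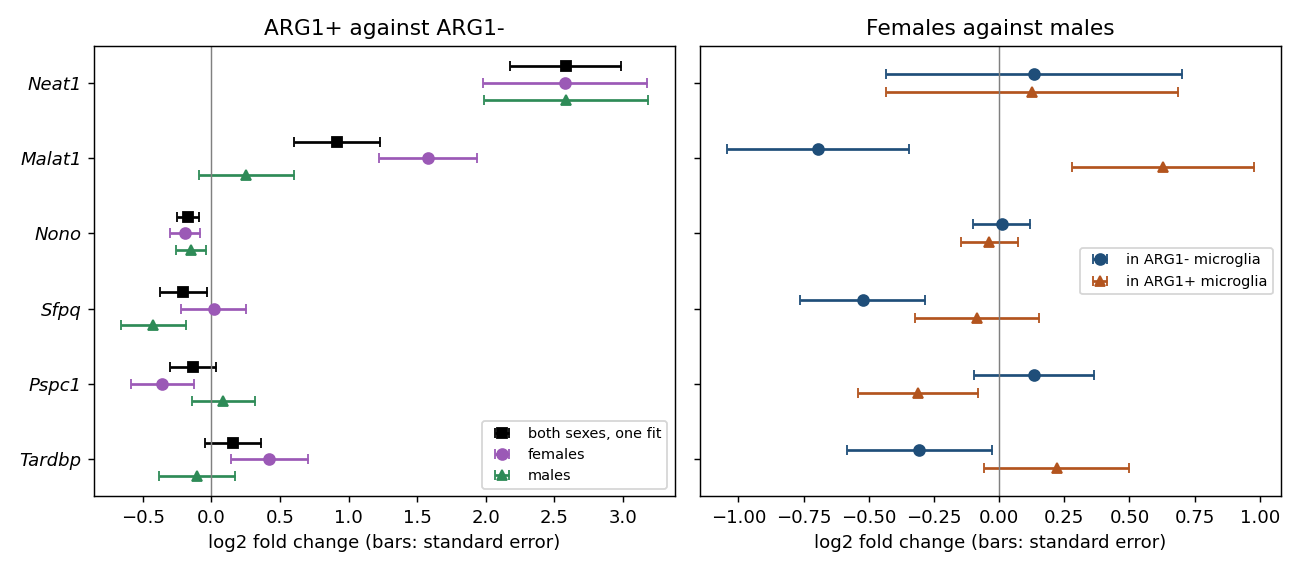
Log2 fold changes (horizontal axes) of the 6 genes are plotted with bars of 1 standard error, on the left for ARG1+ against ARG1- microglia over both sexes, in females and in males, and on the right for females against males in each population. *Neat1* lay at 2.58 in females and 2.59 in males, and *Malat1* at 1.58 in females and 0.25 in males.

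The other proteins known to build paraspeckles were described from lists. These lists were drawn up with earlier results of this contrast known, so their calls are not independent evidence of a direction. Of the 30 tested genes of the 3 paraspeckle lists, 4 were higher and 1 lower in ARG1+ microglia, and 25 did not pass the limit. Called genes made up 16.7% of these lists, close to the 15.9% of all genes tested, of which 6.44% were higher and 9.42% lower. The median log2 fold change was 0.23, against 0.06 for all genes tested.

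Among the 6 assembly factors, *Smarca4*, which encodes the chromatin-remodelling ATPase BRG1, rose from 87.0 ± 18.4 to 130 ± 25.4 CPM (log2 fold change 0.59, SE 0.17; edgeR adjusted p = 0.0313). It lost its call when any of 5 libraries was left out (ARG1- female replicate 2 and male replicate 5, and ARG1+ female replicate 7 and male replicates 12 and 16). The others did not pass the limit. Of these, *Hnrnph3* had a log2 fold change of 0.27 (SE 0.19), *Rbm14* of 0.18 (SE 0.17), *Hnrnpk* of -0.20 (SE 0.08) and *Dazap1* of -0.35 (SE 0.21), with adjusted p values from 0.104 to 0.529. HNRNPK is known to favour the long *Neat1* isoform by hindering cleavage factor Im at the short isoform's polyadenylation site. The 3 subunit genes of that factor also did not pass the limit, with log2 fold changes of 0.41 (SE 0.18) for *Cpsf6*, 0.46 (SE 0.18) for *Cpsf7* and -0.14 (SE 0.22) for *Nudt21*.

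Of 21 other paraspeckle protein genes tested, 3 were higher and 1 lower. *Akap8l*, which encodes a nuclear anchoring protein, had ARG1- libraries from 61.8 to 127 CPM and ARG1+ libraries from 161 to 292 CPM, without overlap, and a log2 fold change of 1.44 (SE 0.18; edgeR adjusted p = 5.78e-04). *Ahdc1* was low, at 1.39 ± 0.80 CPM in ARG1- and 4.81 ± 2.13 CPM in ARG1+ microglia (log2 fold change 1.75, SE 0.50; edgeR adjusted p = 0.0334). That call was lost in 8 of the 12 fits without 1 library, namely without any ARG1- male, any ARG1+ male, ARG1- female replicate 2 or ARG1+ female replicate 15. *Fam98a* fell from 23.9 ± 4.11 to 13.9 ± 2.14 CPM, with populations that did not overlap (log2 fold change -0.79, SE 0.16; edgeR adjusted p = 0.00763).

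Of the 4 tested genes for transcription factors known to act on *Neat1*, 2 were called higher and 2 did not pass the limit. Among all genes tested, 6.44% were called higher. The log2 fold change was positive for 3 of the 4 and negative for 1. *Hsf1*, which encodes the heat-shock factor, rose from 33.8 ± 9.95 to 62.4 ± 9.17 CPM (log2 fold change 0.90, SE 0.18; edgeR adjusted p = 0.00592). *Hif1a*, which encodes the oxygen-regulated subunit of the hypoxia-inducible factor, rose from 140 ± 25.6 to 212 ± 34.4 CPM (log2 fold change 0.60, SE 0.15; edgeR adjusted p = 0.0181). *Epas1* did not pass the filter, and its highest library was at 0.415 CPM.

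Among 11 tested genes for the processing and binding of the *Malat1* 3' end, most of which encode subunits of RNase P, 0 were higher and 3 were lower, with a median log2 fold change of -0.52. *Pop7* fell from 25.4 ± 3.24 to 15.4 ± 3.51 CPM (log2 fold change -0.72, SE 0.18; edgeR adjusted p = 0.0163), and *Pop5* fell from 16.6 ± 3.18 to 10.7 ± 1.47 CPM (log2 fold change -0.63, SE 0.18; edgeR adjusted p = 0.033). Neither gene's populations overlapped. The *Pop7* call was lost without ARG1+ female replicate 7 or 8 or male replicate 12 or 16. The *Pop5* call was lost in 7 of the 12 fits without 1 library (ARG1- female replicate 13 and male replicate 14, and ARG1+ replicates 7, 8, 12, 15 and 16), without the filter, and with a filter of 10 counts in every library. By counts over all genes, 9.42% were lower.

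Nuclear speckle protein genes and detained-intron mRNAs were the lists with the most calls in the higher direction. Of 11 speckle protein genes, 5 were higher and 0 lower (45.5% called; median log2 fold change 0.37), beside 6.44% higher and 15.9% called in either direction among all genes tested. *Srrm1*, a splicing coactivator gene, rose from 66.0 ± 7.70 to 144 ± 33.5 CPM (log2 fold change 1.11, SE 0.15; edgeR adjusted p = 9.35e-04). *Pnn*, whose product joins exon junction proteins, rose from 42.8 ± 21.3 to 86.9 ± 18.2 CPM (log2 fold change 1.04, SE 0.31; edgeR adjusted p = 0.0411) and lost the call in 9 of the 12 fits without 1 library, keeping it without ARG1- female replicate 13, ARG1- male replicate 14 or ARG1+ male replicate 16.

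Detained-intron mRNAs are polyadenylated transcripts that keep certain introns and are held in the nucleus. The values here are counts over whole genes known to give such transcripts, and intron-retaining forms were not measured. Of the 18 genes tested, all had a positive log2 fold change and 6 (33.3%) were called higher, with a median of 0.58. Among all genes tested, 53.6% had a positive log2 fold change, 6.44% were called higher and the median was 0.06. *Rsrp1* rose from 1055 ± 254 to 2590 ± 339 CPM (log2 fold change 1.32, SE 0.15; edgeR adjusted p = 4.22e-04). *Ccnl2*, which encodes a cyclin that binds splicing factors, rose from 130 ± 8.74 to 305 ± 44.7 CPM (log2 fold change 1.22, SE 0.10; edgeR adjusted p = 1.87e-04). Other nuclear long noncoding RNAs gave 0 calls among 10 tested, at a median log2 fold change of 0.35. *Firre*, with the largest fitted increase of them, lay at 23.8 ± 17.5 CPM in ARG1- and 54.3 ± 17.0 CPM in ARG1+ microglia (log2 fold change 1.30, SE 0.48; edgeR adjusted p = 0.0872), and was singled out after its values were seen. The list went both ways, with 7 positive and 3 negative log2 fold changes. The largest fitted decrease was that of *Meg3* (log2 fold change -2.82, SE 1.37; edgeR adjusted p = 0.196).

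**Figure D3:**
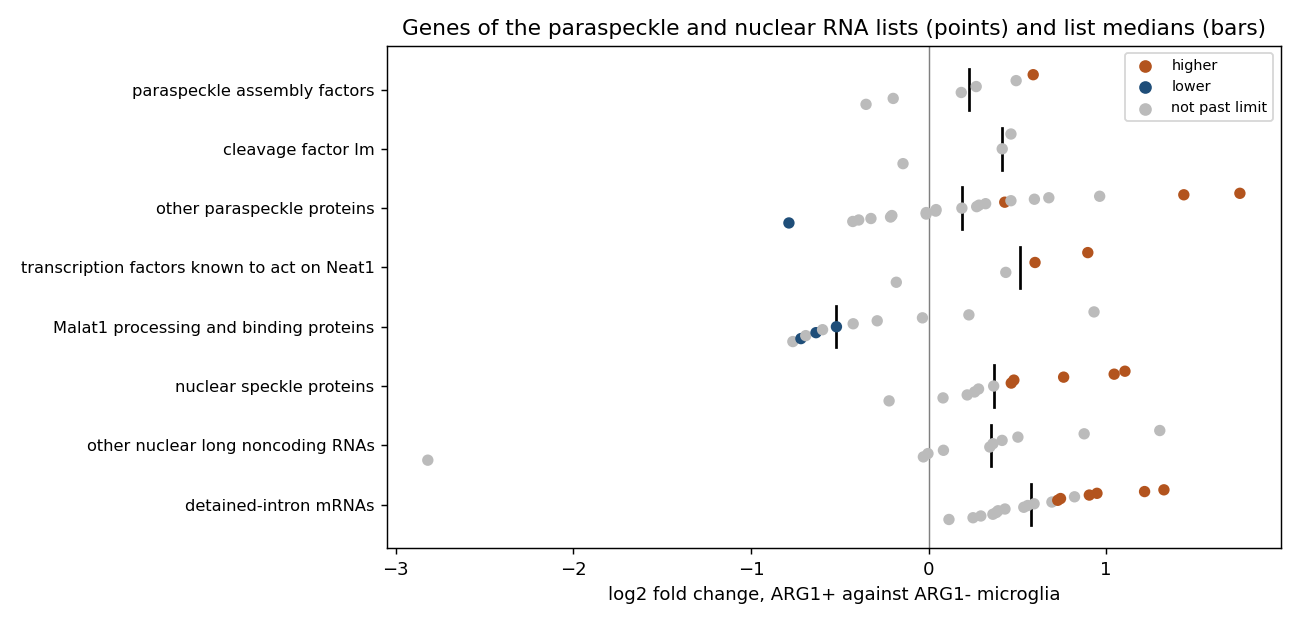
Each point is 1 tested gene of the list named on the vertical axis, at its log2 fold change of ARG1+ against ARG1- microglia (horizontal axis), coloured by its edgeR call, and each bar is the median of the list. Medians lay between -0.52 for *Malat1* processing genes and 0.58 for detained-intron mRNAs, whose 18 points were all above 0.

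The summed gene counts of the 18 detained-intron mRNAs were higher in every ARG1+ than in every ARG1- library, and within populations its extremes fell in the same libraries as those of *Malat1*. The sum lay between 2738 and 5136 CPM in ARG1- and between 5623 and 7602 CPM in ARG1+ libraries. A large part of it was *Rsrp1* alone, with means of 1055 CPM in ARG1- and 2590 CPM in ARG1+ libraries. Of the 18 genes, 4 had populations that did not overlap, beside 10% of all genes tested. In ARG1- microglia, female replicate 1 was lowest in both measures (468 CPM of *Malat1*, 2738 CPM of detained-intron mRNAs) and male replicate 14 was highest in both (1345 and 5136 CPM). In ARG1+ microglia, male replicate 16 was lowest in both (733 and 5623 CPM) and female replicate 8 was highest in both (2523 and 7602 CPM). *Neat1* was also lowest in female replicate 1 among ARG1- libraries (1.89 CPM) and highest in female replicate 2 (12.6 CPM), and among ARG1+ libraries male replicate 11 was lowest and female replicate 15 highest. The share of counts on the mitochondrial genome was 0.247% to 0.636% in ARG1- and 0.147% to 0.396% in ARG1+ libraries, and that on lincRNA genes was 0.199% to 0.379% and 0.259% to 0.524%. The part of these measures in the *Neat1* and *Malat1* differences was not tested.

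**Figure D4:**
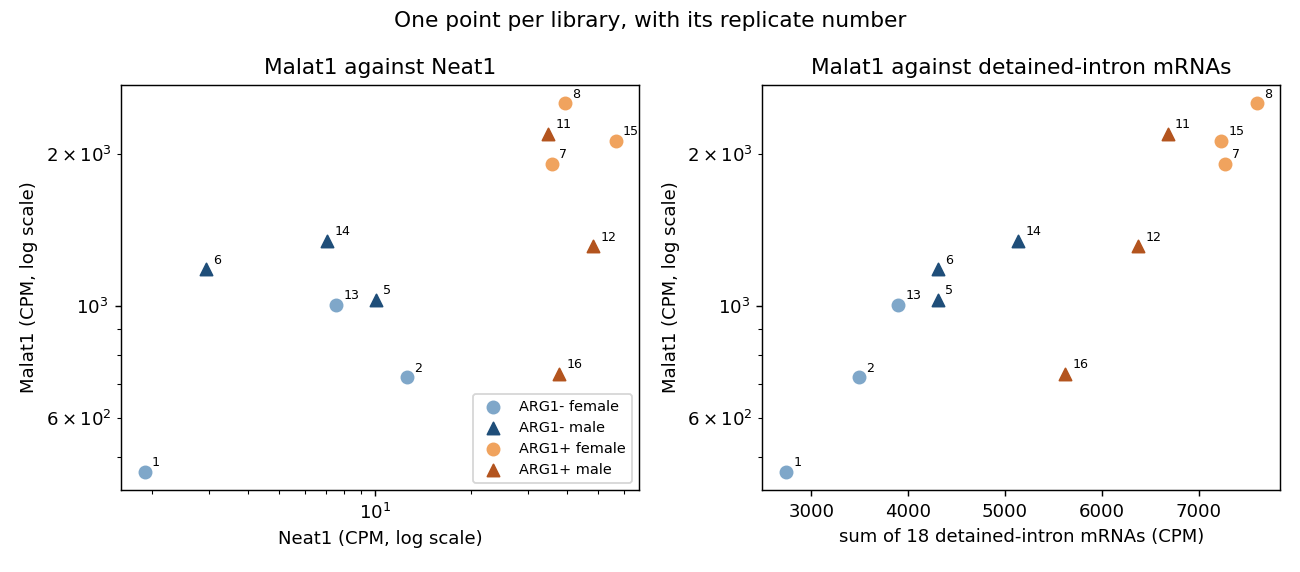
Each point is 1 library labelled with its replicate number, with *Malat1* (vertical axes, CPM, log scale) against *Neat1* (left, CPM, log scale) and against the sum of 18 detained-intron mRNAs (right, CPM, linear axis not starting at 0). ARG1+ libraries stood at 34.9 CPM of *Neat1* or more and at 5623 CPM of detained-intron mRNAs or more, and the ARG1+ males 12 and 16 held *Malat1* levels within the ARG1- range.

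The genes whose pattern over the 12 libraries was most like that of a long noncoding RNA were found by the root mean square (RMS) difference of log2 CPM, after each gene was centred on its own mean, among genes with a mean log2 CPM of at least 5. For *Neat1* these were *Sap25* (0.90), *Snx29* (0.93) and *Nav2* (0.94), against a median of 1.62 over 5260 genes. *Sap25* lay at 27.0 ± 11.3 CPM in ARG1- and 119 ± 25.3 CPM in ARG1+ microglia. For *Malat1* the closest was *Gm37376* (0.06), which lies over the same bases, and then *Srsf5* (0.29) and *Rbm25* (0.35), against a median of 0.81. Both of these are on the detained-intron list. Among the members, *Malat1* was the closest to *Neat1*, at 1.25, and the others were at 1.49 to 1.69. *Nono* and *Pspc1* were 0.26 apart, but genes that vary little lie close to each other by this measure.

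The genes around the pair did not move with it as a block. Within 250 kb of either gene lay 51 others, of which 41 were tested, with a median log2 fold change of 0.01. The 3 called higher were *Gm27533*, *Gm27505* and *Gm28006*, all inside *Neat1*. The 5 called lower were *Rnaseh2c*, *Kat5*, *Fam89b*, *Sssca1* (ENSMUSG00000118125) and *Fau*, whose product is a ubiquitin-like protein fused to a ribosomal protein. *Fau* had the largest decrease of the 5 (log2 fold change -1.40, SE 0.20; edgeR adjusted p = 0.00106). *Fam89b* and *Sssca1* overlap on the same strand, so their counts are uncertain. *Rnaseh2c* and *Kat5* overlap in position on opposite strands, and without strand their counts can be uncertain too. In all, 19.5% of the tested neighbours were called, beside 15.9% of all genes. That share includes the 3 genes inside *Neat1*, whose counts can come from *Neat1* reads, so it is not a share of separate neighbours. All calls outside *Neat1* were in the lower direction. *Frmd8*, the protein gene upstream of *Neat1*, had a log2 fold change of 0.09 (SE 0.13) and was chosen for its position.

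**Figure D5:**
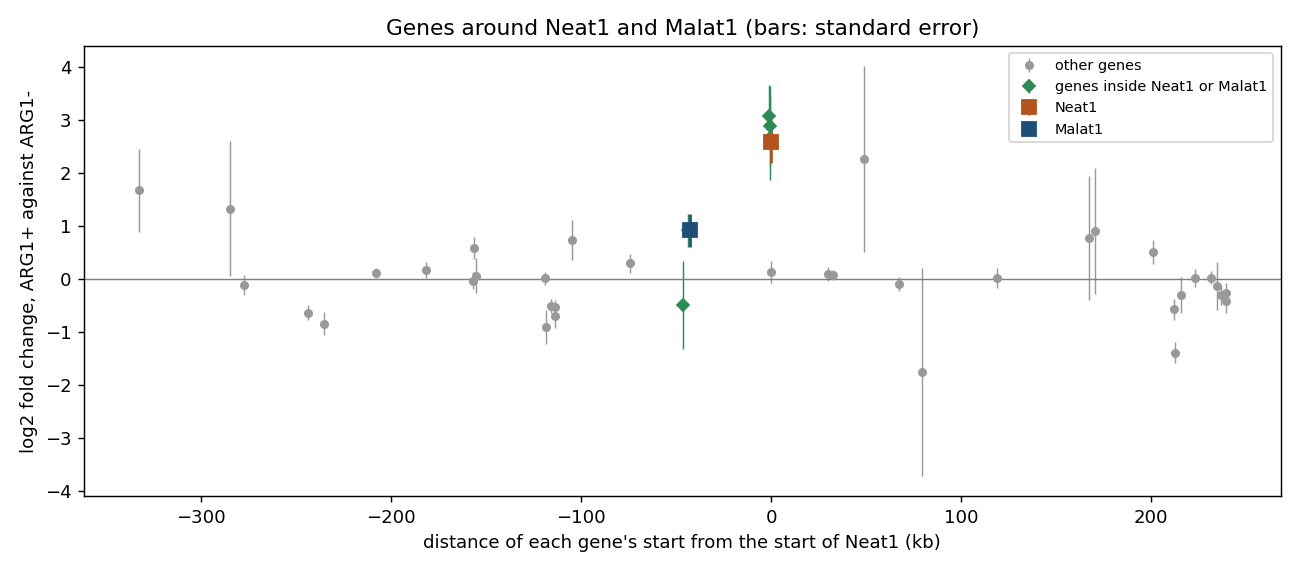
The log2 fold change of ARG1+ against ARG1- microglia (vertical axis, bars of 1 standard error) is plotted for the tested genes near *Neat1* and *Malat1* at the distance of their start from that of *Neat1* in kb (horizontal axis). *Neat1* stood at 2.58 with the small genes inside it, *Malat1* at 0.92, and the median of the 41 tested neighbours was 0.01.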

How the data were processed

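Microglia of YARG mice were sequenced as 12 libraries (SMART-Seq v4 cDNA, Nextera XT, single-end reads of 75 bases, without strand or molecular identifiers). Per the paper's methods and the labels, the authors used STAR 2.6.1d for alignment to GRCm38 and featureCounts 1.5.1 for counting. The deposited values are raw counts per gene, with no normalization. Groups came from the sample titles, and p-values measure the spread between pooled libraries. Per the paper's methods both populations were sorted from pooled litters of each sex, so ARG1+ and ARG1- libraries can share a litter, but the labels do not say which, and the fits treat all 12 libraries as independent.

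Counts were fitted with edgeR 4.0.16 in R 4.3.3, using filterByExpr on the 4 groups, TMM and glmQLFTest. ARG1 status was tested with sex as a second term, and sexes and the interaction were tested on 4 group means. P-values were Benjamini–Hochberg adjusted over 16908 genes (limit 0.05), and calls were checked on simulated counts. Symbols and positions came from GENCODE M21, which matched 55227 of 55487 identifiers.

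The members and lists were chosen with earlier results of these data known. Named were all members, the 2 largest increases and 2 largest decreases past the limit per list, all assembly factor and cleavage factor Im genes, called genes within 250 kb, and the 3 genes most like *Neat1* and *Malat1*. The result of 1 gene under this rule is not reported here. Alternatives were DESeq2 size factors, upper-quartile factors, totals without the members and the mitochondrial genome, no filter, at least 10 counts in every library, a term for libraries 13 to 16, DESeq2 1.42.0, ARG1 status alone, and each library left out. All 12 pairs of replicate libraries differed by more than sampling noise.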

Additional observations from a re-analysis of the deposited data

Results flagged for a closer look

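*Pspc1* in ARG1- male replicate 14 lay at 14.3 CPM, apart from the other 5 ARG1- libraries at 19.8 to 21.2 CPM, and its gap to the nearest of them was 0.806 of the population's range. It was the 1 flagged of 14 sets of 6 libraries searched, where chance gives about 0.7.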

How the results depend on the processing

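In the ARG1 contrast every member kept its sign under the 8 alternatives and without any 1 library. Without 1 library the log2 fold change ranged from 2.38 to 2.86 for *Neat1*, 0.73 to 1.17 for *Malat1*, -0.19 to -0.12 for *Nono*, -0.34 to -0.08 for *Sfpq*, -0.22 to -0.06 for *Pspc1* and 0.04 to 0.31 for *Tardbp*. The cause of the following changes was not tested. With at least 10 counts in every library, 26 listed genes and 7 paraspeckle-list genes were higher, and 0 genes were called between the sexes in either population. DESeq2 called 1896 genes and 31 listed and 9 paraspeckle-list genes higher, 320 and 37 genes between the sexes in ARG1- and ARG1+ microglia, and 214 in the interaction. Without 1 library, genes called higher ranged from 690 (without ARG1+ male 12) to 1116 and lower from 1048 (without ARG1+ male 16) to 1553. Listed genes higher ranged from 10 (without ARG1- female 2; 11 without ARG1+ male 12) to 24, and listed genes lower from 1 (without ARG1+ female 8; 2 without ARG1+ female 7, male 12 or male 16) to 6. Paraspeckle-list genes higher ranged from 1 (without ARG1- female 2 or ARG1+ male 12; 2 without ARG1+ female 7 or 15, ARG1+ male 16 or ARG1- male 5) to 4, and lower from 1 to 2 (without ARG1- female 13). Sex calls ranged from 11 to 48 (without ARG1- male 5) in ARG1- microglia and stayed at 6 in ARG1+ microglia, and interaction calls ranged from 0 to 10 (without ARG1- male 5; 3 without ARG1- female 13). *Cpsf7* was called by DESeq2 and without ARG1+ male 16, and *Cpsf6* without ARG1- male 6. The *Ahdc1* call was also lost with no filter.

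Member values near 0 changed sign. The sex difference of *Nono* in ARG1- microglia was -0.01206 with DESeq2 size factors, -0.005489 with upper-quartile factors, -0.005675 with totals without members and the mitochondrial genome, -0.01544 with at least 10 counts and -0.01175 with DESeq2. The *Neat1* interaction was 0.03943, 0.02226, 0.02642 and 0.05421 under the first 4 of these, 0.041 with DESeq2 and 0.019 with no filter, and that of *Nono* was 0.005082 with at least 10 counts. Without 1 library, the sex difference in ARG1- microglia ranged from -0.49 to 0.59 for *Neat1*, -0.019 to 0.036 for *Nono* and -0.033 to 0.23 for *Pspc1*. In ARG1+ microglia it ranged from -0.10 to 0.27 for *Neat1*, -0.087 to 0.028 for *Nono* and -0.37 to 0.091 for *Sfpq*. The interaction ranged from -0.46 to 0.62 for *Neat1* and -0.082 to 0.033 for *Nono*. No paired analysis was possible because the groups share no replicate numbers in the labels, although libraries of the populations can come from the same litter. Counts carry no molecular identifiers, so depth covers counting error only.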
